A study of Homo sapiens with 2 samples.

Results

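Chromatin-modifying enzyme genes were followed in REH cells, a line from human B-lineage acute lymphoblastic leukaemia that the labels call REH-R, after PAX5 was switched on. The genes were chosen by name: symbols that start with KMT, HDAC, SETD plus a digit or SIRT plus a digit, the PRC2 genes EZH1, EZH2, EED and SUZ12, the SUV39H, SETDB, EHMT and NSD genes, DOT1L, ASH1L, and the DNMT and TET genes. This gave 57 of 25702 counted gene features, and all 57 had at least 10 counts over the 2 libraries. The label "histone methyltransferases and deacetylases" therefore also takes in 6 enzymes that act on DNA methylation, PRC2 subunits with no enzyme activity of their own, and 1 antisense RNA, KMT2E-AS1. One library came from cells with tet-regulated PAX5-IRES-GFP, and the other from control cells with tet-regulated IRES-GFP (GFP is green fluorescent protein, and the IRES is an internal ribosome entry site). Doxycycline (1 µg/mL) was given to both for 3 days, and total RNA was taken from sorted cells positive for GFP. Each group is 1 library, so the differences have no replicate check and p-values are left out. Ratios are PAX5 over control, and their exact 95% intervals cover counting error only.

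Histone lysine methyltransferases add methyl groups to defined lysines of histone tails. Marks on H3K4, H3K36 and H3K79 lie mainly on active promoters, enhancers and transcribed genes, and marks on H3K27 and H3K9 mainly on silent chromatin. Histone deacetylases (HDACs) and the NAD-dependent sirtuins remove acyl groups, mainly acetyl, from histones and other proteins. Of class I, HDAC1, HDAC2 and HDAC3 act within corepressor complexes. DNMT enzymes methylate cytosines in DNA and TET enzymes oxidise that methyl group. Several of these genes, KMT2A, KMT2D, NSD2, EZH2 and TET2 among them, are recurrent targets of alteration in blood cancers, and PAX5 commits lymphoid progenitors to the B lineage.

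Total counts were 11944765 for PAX5 cells and 10997864 for control cells. PAX5 itself had 8319 counts in PAX5 cells and 2660 in control cells, 2.91 times the control level in CPM (counts scaled to a common library total), so transcript was also present in control cells. B-cell precursor markers were abundant in both libraries: the 8 genes of that list summed to 6369 CPM in PAX5 cells and 6740 CPM in control cells. The T-cell list of 5 genes had 0 counts in PAX5 cells and 1 count in control cells, and 3 erythroid genes had 0 counts in both. The 5 myeloid genes summed to 66.6 CPM in PAX5 cells and 132 CPM in control cells. Most of that was MPO (554 counts in PAX5 cells against 1138 in control cells), while LYZ had 1 count in each library. The part of this shift in the ratios below was not tested, and in RNA from a cell population fewer cells of a type and less RNA per cell cannot be told apart.

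Most of these enzymes were well expressed. Over the 57 genes the median level in TPM was 34.0 in PAX5 cells and 29.2 in control cells, where all measured features had medians of 23.7 TPM in PAX5 cells and 22.1 TPM in control cells. TPM (transcript share on a common library total) divides counts by gene length and is used here to rank genes within a library. HDAC1, a core enzyme of the Sin3, NuRD and CoREST corepressor complexes, stood highest at 304 TPM in PAX5 cells and 259.8 TPM in control cells. DNMT1, which copies DNA methylation onto new strands after replication, followed at 259 TPM in PAX5 cells and 216 TPM in control cells. EZH2, the PRC2 methyltransferase of dividing cells, had 157 TPM in PAX5 cells and 151 TPM in control cells, and its partner SUZ12 had 145 TPM in PAX5 cells and 135 TPM in control cells. The first 3 places were the same in the 2 libraries, and SUZ12 and HDAC3 changed places at 4 and 5. At the other end SETD6, KMT2E-AS1, the mitochondrial sirtuin SIRT4 and SETD9 were all below 8 TPM in either library. SETD6, a methyltransferase of the NF-kB subunit RELA, was barely detected, with 14 counts in PAX5 cells and 7 in control cells.

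**Figure D1:**
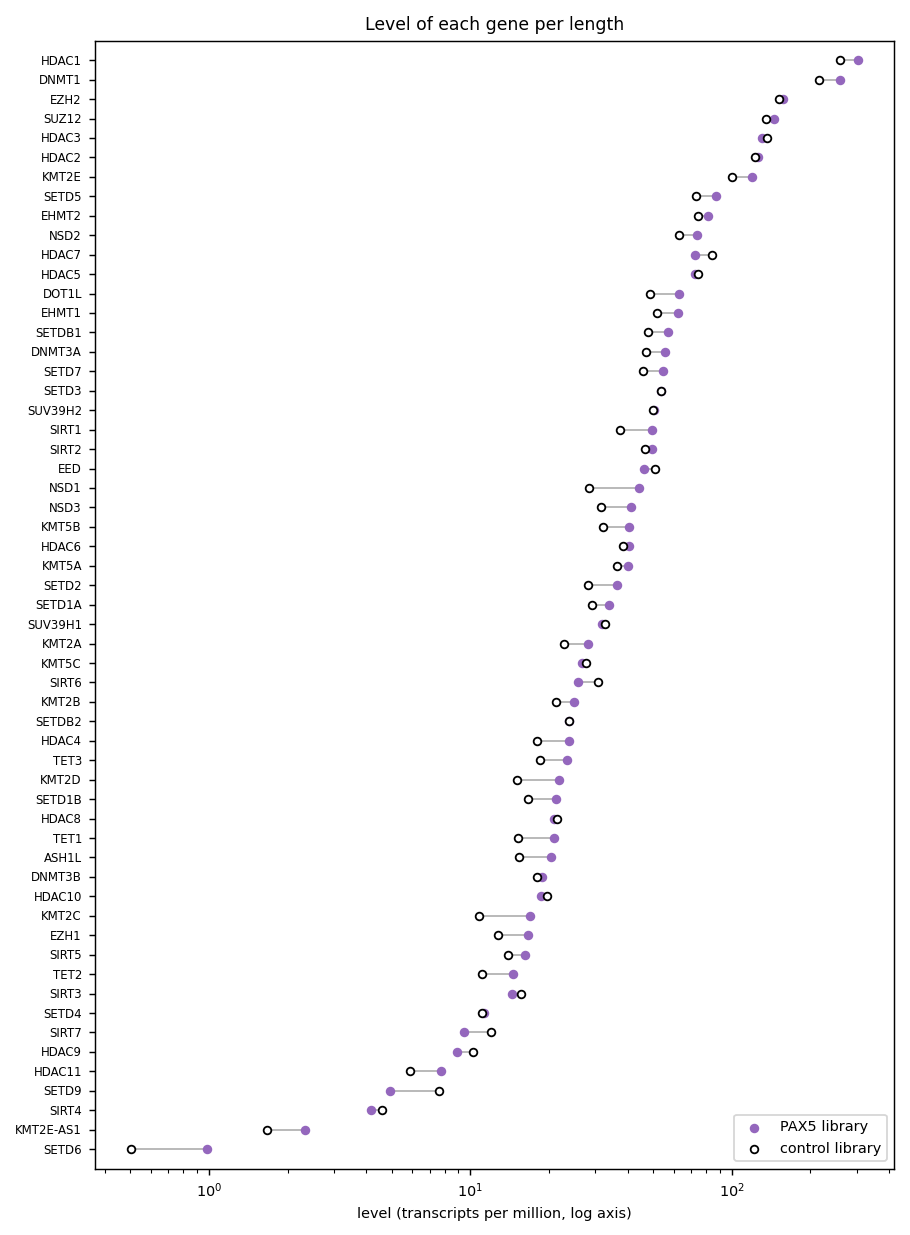
Level of each gene in TPM (log axis) in PAX5 cells (filled) and control cells (open), 1 library each. HDAC1 and DNMT1 stand highest, at 304 and 259 TPM in PAX5 cells, and SETD6 lowest.

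No member differed strongly between the libraries. A feature was called when the interval bound nearest 0 reached 2-fold, and 0 of 57 members were called in either direction, where 1.34% of all 13532 measured features were called higher and 0.0517% lower. No member was called with the bound at 1.5-fold (2.62% of features higher, 0.347% lower) or by a point ratio of 2-fold (4.04% higher, 1.73% lower). In 55 of 57 genes the point ratio was within 1.5-fold, and the 2 outside it were the weakly counted SETD6 and SETD9. Among 5339 features with at least 1000 counts, 97.1% were within 1.5-fold, and 21 were called higher at the 2-fold bound and 0 lower. Ratios this close to 1 are therefore not particular to the members. Smaller differences could be seen because the genes are abundant, with a median of 1820 counts over the 2 libraries. Intervals lay wholly above 0 for 27 members and wholly below 0 for 7, against 18.7% and 16.8% of all measured features. Among features with at least 1000 counts the shares were 28.7% above and 25% below, and 26 and 4 of the 39 members of that depth did so. The median log2 ratio was 0.15 for the members and -0.01 for all features. Counting error is only part of the error. A variation of 0.1 (coefficient of variation) between cultures was then assumed, a value chosen after the data were seen. With it, 3 members lay above 0 (KMT2C, NSD1 and KMT2D) and 1 below (SETD9). The share of all features under that wider interval was not counted, so these member counts have no background beside them.

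**Figure D2:**
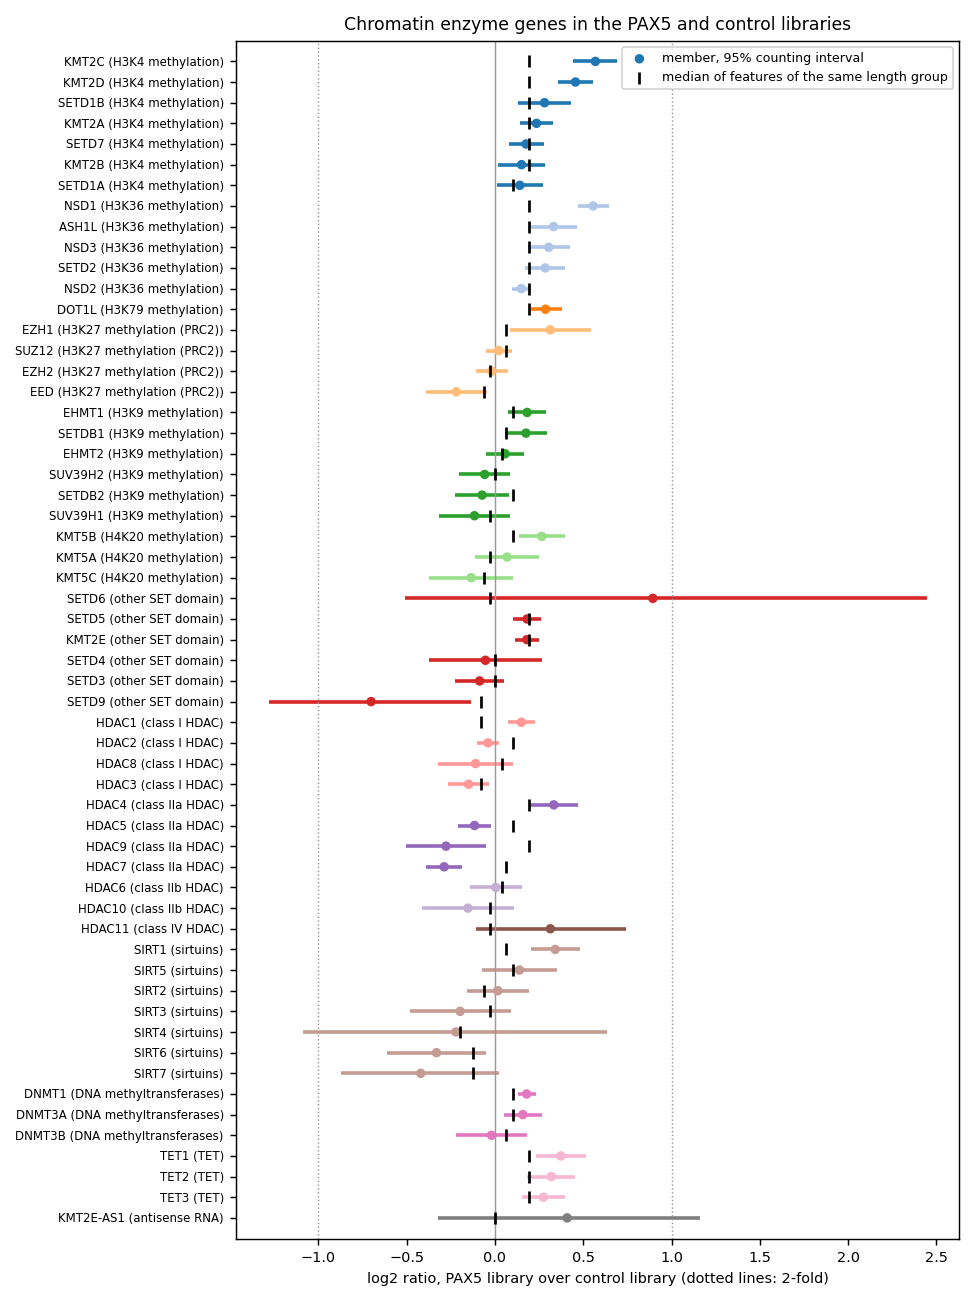
Log2 ratio (PAX5 over control) of each member, grouped by role, with exact 95% counting intervals. Black ticks give the median ratio of features of the same length group, and dotted lines mark 2-fold. All points lie inside the 2-fold lines, and the H3K4, H3K36 and TET genes lie to the right of 0.

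Gene length ordered these ratios. Long genes in general had higher ratios in PAX5 cells: across 10 equal groups of features by length, the median log2 ratio ran from -0.20 in the shortest group to 0.19 in the longest. The members are long, with a median length of 4658 bases against 2873 for all measured features, and 19 of the 57 fell in the longest group. Of those 19, 18 had intervals above 0, where 54% of the features in that group did, and 1 (HDAC9) lay below 0, where 3.87% did. All 13 members over 8000 bases had intervals above 0, while among 15 members under 3000 bases 1 lay above 0 and 4 below. The short members were near the shares of short features. From length group 1, the shortest, to group 5 (up to 3061 bases), 5.11% to 11.2% of features lay above 0. Those below 0 went from 33.6% in group 1 to 16.2% in group 5. Across the 54 members with at least 100 counts, Spearman's rho between length and log2 ratio was 0.72, against 0.45 across 10672 features (genes of 1 pair of libraries, so a description only). The cause of the trend was not tested.

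Each ratio was therefore also set against features of its own length group. After the group median was subtracted, the median over the members was 0.02, against 0.01 over all features. Intervals then lay above the group median for 11 members and below it for 6, where 16.6% and 13.7% of all measured features did. Among features with at least 1000 counts, whose intervals are as narrow as those of most members, the shares were 22.5% above and 21.5% below, and 10 and 4 of the 39 members of that depth did so. The median hides a spread with length: Spearman's rho between length and the centred ratio was 0.47 across the 54 members with at least 100 counts, against 0.01 across features. Of 13 members over 8000 bases, 11 had positive centred ratios and 6 lay above their length group, where 23.7% of features in the longest group lay above and 19.3% below. That group spans 6740 to 111972 bases, and a length trend remains within it. The median of the 201 features nearest in length was 0.14 for SETD5 (6827 bases) and 0.27 for KMT2C (16862 bases). Against those nearest features HDAC4 and ASH1L, of the 6, had intervals across 0, and NSD2 lay below. The 17 genes that stood off their group are described by role below.

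**Figure D3:**
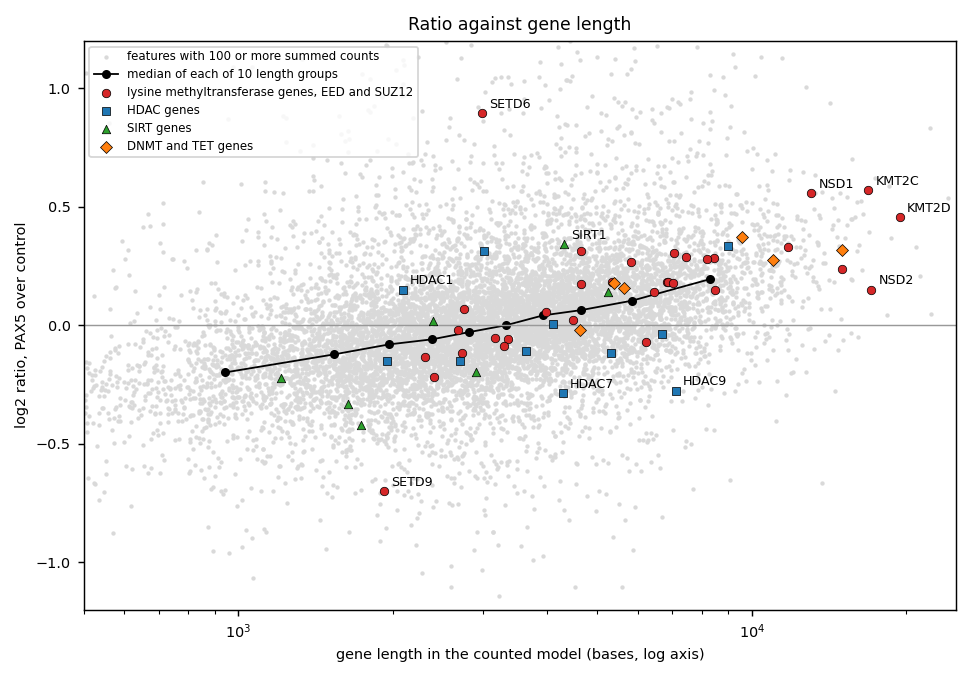
Log2 ratio of the PAX5 library over the control library against gene length in bases (log axis). Grey points are features with at least 100 summed counts, the black line joins the medians of 10 length groups (-0.20 to 0.19), and coloured points are the members. KMT2C, NSD1 and KMT2D lie above the line among the longest genes, and HDAC7 and HDAC9 below it.

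The 3 highest ratios among members with at least 100 counts were those of KMT2C, NSD1 and KMT2D, which write H3K4 or H3K36 methylation. KMT2C, an enhancer H3K4 monomethyltransferase (16862 bases), had 1358 counts (114 CPM) in PAX5 cells and 851 counts (77.0 CPM) in control cells. Its ratio was 1.48-fold (1.36 to 1.62), or 0.57 on the log2 scale, and exceeded that of 91.6% of features in its length group. NSD1, an H3K36 dimethyltransferase (13059 bases), had 2743 counts (231 CPM) in PAX5 cells and 1734 counts (157 CPM) in control cells, 1.47-fold (1.38 to 1.56). KMT2D, the close relative of KMT2C with the same enhancer role (19419 bases), had 2016 counts (170 CPM) in PAX5 cells and 1366 counts (124 CPM) in control cells, 1.37-fold (1.28 to 1.47). These 3 were higher in PAX5 cells than in control cells, although KMT2C and KMT2D are of modest level per length (16.9 and 21.8 TPM in PAX5 cells). The length-centred log2 ratios were 0.37 for KMT2C (0.25 to 0.50), 0.36 for NSD1 (0.27 to 0.45) and 0.26 for KMT2D (0.16 to 0.36). Against the 201 features nearest in length, they kept values of 0.29, 0.28 and 0.18. That background stops at the 201 longest features, so its median was the same 0.27 for each of them. It is therefore no close length match for genes this long.

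The other genes of this kind stood closer to their length group. All 7 H3K4 genes and all 5 H3K36 genes had intervals above 0. All of them but SETD1A fell in the longest length group, where 54% of features lay above 0. KMT2C and KMT2D of the H3K4 list, and NSD1 and ASH1L of the H3K36 list, lay above their length group. Of all features in the longest group 23.7% did so. KMT2A, the MLL gene that is rearranged in infant leukaemia (14982 bases), had 2014 counts in PAX5 cells and 1590 in control cells, a log2 ratio of 0.24 but a length-centred value of 0.04 (-0.05 to 0.14). KMT2B (0.15), SETD1A (0.14), SETD1B (0.28) and SETD7 (0.18) had log2 ratios whose length-centred intervals included 0. NSD2, the enzyme of t(4;14) myeloma, is as long as KMT2C in this count model (17077 bases) and was the most abundantly counted of the group, with 5976 counts (503 CPM) in PAX5 cells and 5009 counts (453 CPM) in control cells. Its log2 ratio was 0.15 (0.09 to 0.20), and its length-centred value was -0.05 (-0.10 to 0.01). NSD2 lay below the background under 3 of 5 others, with a value of -0.13 (-0.18 to -0.07) against the features nearest in length. For NSD2 too these were the 201 longest features, and not a close length match. SETD2, which writes H3K36 trimethylation, had 1460 counts in PAX5 cells and 1114 in control cells, and NSD3 had 1385 in PAX5 cells and 1042 in control cells. Their log2 ratios of 0.28 and 0.30 became 0.09 and 0.11 after centring, with intervals that included 0. For NSD3 this depended on the length background: under all 5 others its interval lay above the background, with values of 0.12 to 0.18. ASH1L had 1139 counts in PAX5 cells and 841 in control cells, and its length-centred value of 0.14 (0.01 to 0.27) was 0.07 against the features nearest in length, where its interval included 0. DOT1L, the H3K79 methyltransferase, had 2216 counts in PAX5 cells and 1689 in control cells, a log2 ratio of 0.29 (0.19 to 0.38) and a length-centred value of 0.09 whose interval just included 0. Under all 5 other length backgrounds DOT1L lay above, with values of 0.12 to 0.16.

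Writers of the silencing marks were at similar levels in the 2 libraries. EZH2 had 2011 counts (169 CPM) in PAX5 cells and 1893 counts (171 CPM) in control cells, a log2 ratio of -0.02 (-0.11 to 0.07). SUZ12, its structural partner, had 3088 counts in PAX5 cells and 2829 in control cells, a log2 ratio of 0.02 (-0.05 to 0.09). EED, the subunit that reads the H3K27 mark, had 527 counts in PAX5 cells and 570 in control cells, with a log2 ratio of -0.22 (-0.39 to -0.05) whose length-centred interval included 0 (-0.33 to 0.01). EZH1, the paralogue typical of resting cells, was the exception on the other side, with 369 counts (31.0 CPM) in PAX5 cells and 276 counts (25.0 CPM) in control cells, 1.24-fold (1.06 to 1.46) and 0.25 above its length group (0.02 to 0.48). Of 6 H3K9 genes, 2 had intervals above 0, EHMT1 and SETDB1 (log2 ratios 0.18 and 0.18), and none below. Among all measured features 18.7% lay above 0 and 16.8% below. SETDB2 had 709 counts in PAX5 cells and 693 in control cells, and alone of the 6 lay below its length group, by a log2 value of -0.18 (-0.33 to -0.02). EHMT2, SUV39H1 and SUV39H2 had intervals that included 0 on both scales.

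Among H4K20 genes, KMT5B had 1126 counts in PAX5 cells and 871 in control cells. Its log2 ratio was 0.26 (0.14 to 0.39) and its length-centred value 0.16 (0.03 to 0.29). Its relative KMT5C (-0.14) and the monomethyltransferase KMT5A (0.07) had log2 intervals that included 0. The other SET-domain genes include some whose known substrates are not histones, such as SETD3, the actin histidine methyltransferase, at a log2 ratio of -0.09. KMT2E and SETD5 each had a log2 ratio of 0.18 and a length-centred value of -0.01. SETD4 had a log2 ratio of -0.05 with an interval across 0. SETD9, of 1922 bases, had 45 counts in PAX5 cells and 68 in control cells, 1.63-fold lower (1.10 to 2.43), the lowest ratio among the 57 genes but one resting on few counts. SETD6 had the highest point ratio, 1.86-fold, with an interval of 0.702 to 5.44 that allows either direction. KMT2E-AS1, which had 40 counts in PAX5 cells and 28 in control cells, is antisense, and without a known strand setting its reads cannot be told from those of KMT2E.

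The deacetylases had ratios on both sides of 0: of 11 HDAC genes, 2 had intervals above 0 and 4 below, against 18.7% and 16.8% of all measured features, and the median log2 ratio was -0.11. HDAC7 and HDAC9, class IIa enzymes that shuttle between nucleus and cytoplasm and act with MEF2 factors, carried the lowest length-centred values apart from the weakly counted SETD9. HDAC7, which is needed for early B-cell development in mice, had 1481 counts (125 CPM) in PAX5 cells and 1680 counts (152 CPM) in control cells. It was 1.22-fold lower (1.14 to 1.31), and its ratio exceeded that of 4.50% of features in its length group. HDAC9 had 301 counts (25.3 CPM) in PAX5 cells and 339 counts (30.7 CPM) in control cells, 1.21-fold lower (1.03 to 1.42), above 1.5% of the features in its length group. HDAC5, of the same class, had 1830 counts (154 CPM) in PAX5 cells and 1843 counts (167 CPM) in control cells, a log2 ratio of -0.12 (-0.21 to -0.02). After centring on length the 3 genes had log2 values of -0.35 for HDAC7 (-0.45 to -0.25), -0.47 for HDAC9 (-0.70 to -0.24) and -0.22 for HDAC5 (-0.31 to -0.13). HDAC4, the fourth class IIa gene, lay on the other side, with 1018 counts (85.6 CPM) in PAX5 cells and 751 counts (68.0 CPM) in control cells, 1.26-fold higher (1.15 to 1.39). Its length-centred value of 0.14 had an interval that touched the group median (0.0013 to 0.28), and it included 0 under 4 of 5 other length backgrounds.

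Class I enzymes had ratios on both sides of 0, all within 1.5-fold. HDAC1 had 3025 counts (254 CPM) in PAX5 cells and 2535 counts (229 CPM) in control cells, a log2 ratio of 0.15 (0.07 to 0.23). Its partner HDAC2 had 3993 counts (336 CPM) in PAX5 cells and 3813 counts (345 CPM) in control cells, a log2 ratio of -0.04 (-0.10 to 0.03). HDAC1 is short (2091 bases) and HDAC2 long (6684 bases), so centring moved them apart, to 0.23 (0.15 to 0.31) and -0.14 (-0.21 to -0.08). HDAC3, another corepressor enzyme of this class, had 1203 counts in PAX5 cells and 1240 in control cells, a log2 ratio of -0.15 (-0.27 to -0.03) that was -0.07 with an interval across 0 after centring. HDAC8 (-0.11), the tubulin deacetylase HDAC6 (0.00), HDAC10 (-0.15) and HDAC11 (0.31, with 111 counts in PAX5 cells and 83 in control cells) had log2 intervals that included 0.

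Of 7 sirtuins, SIRT1 alone had an interval above 0 and SIRT6 alone one below. That is 14.3% on each side, against 18.7% and 16.8% of all measured features. SIRT1, a nuclear deacetylase of histones and p53, had 1021 counts (85.9 CPM) in PAX5 cells and 749 counts (67.8 CPM) in control cells, 1.27-fold (1.15 to 1.39). At 4313 bases it is of average length for the members, and its length-centred value of 0.28 (0.14 to 0.42) was the fourth highest among members with at least 100 counts, after KMT2C, NSD1 and HDAC11. SIRT6, a chromatin sirtuin that acts on H3K9 acetylation, had 201 counts (16.9 CPM) in PAX5 cells and 235 counts (21.3 CPM) in control cells, 1.26-fold lower (1.04 to 1.53). It is short (1636 bases), and its length-centred interval of -0.49 to 0.07 included 0. The nucleolar SIRT7 had 78 counts (6.56 CPM) in PAX5 cells and 97 counts (8.78 CPM) in control cells, a log2 ratio of -0.42 with an interval that included 0 (-0.87 to 0.02). The mitochondrial SIRT4 had 24 counts in PAX5 cells and 26 in control cells, too few to place beyond counting error. SIRT2, SIRT3 and SIRT5 had log2 ratios of 0.02, -0.20 and 0.14 with intervals that included 0.

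DNA methylation enzymes had 5 of 6 intervals above 0 and none below, where 54% of features in the longest length group and 28.7% of those with at least 1000 counts lay above 0. DNMT1 had the most counts of any member, 6648 (559 CPM) in PAX5 cells and 5455 (494 CPM) in control cells, and a log2 ratio of 0.18 (0.13 to 0.23). The de novo enzyme DNMT3A had 1490 counts in PAX5 cells and 1241 in control cells, a log2 ratio of 0.16 (0.05 to 0.27). DNMT3B, the second de novo enzyme, had 414 counts in PAX5 cells and 390 in control cells, and its log2 ratio was -0.02 (-0.22 to 0.18). The 3 TET genes all had intervals above 0: TET1 had 952 counts in PAX5 cells and 683 in control cells, TET2 had 1043 in PAX5 cells and 777 in control cells, and TET3 had 1227 in PAX5 cells and 943 in control cells. Their log2 ratios were 0.37 (0.23 to 0.52), 0.32 (0.18 to 0.45) and 0.27 (0.15 to 0.40). They are long genes of 9584 to 15006 bases, and centring left 0.18 (0.04 to 0.32) for TET1 and values of 0.12 and 0.08 with intervals across 0 for TET2 and TET3. DNMT1 lay 0.08 above its length group (0.02 to 0.13).

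Related genes were then compared with each other in 20 pairs fixed by family, where the difference of the 2 log2 ratios does not depend on how the libraries are scaled. The counting interval of the difference lay off 0 in 8 of 20 pairs, and in 5 after each gene was centred on its length group. Pairs of unrelated genes were not counted, and NSD1 and TET2 each stand in 2 pairs. The counts therefore do not show that related genes differ more than others. NSD1 exceeded NSD2 by 0.41 (0.30 to 0.51) and NSD3 by 0.25 (0.10 to 0.40), and in these pairs of longest-group genes centring changed nothing. HDAC4 exceeded HDAC5 by 0.45 (0.28 to 0.62), and by 0.36 after centring (0.19 to 0.53). HDAC1 exceeded HDAC2 by 0.19 (0.09 to 0.29) and by 0.37 after centring (0.27 to 0.47). SETDB1, an H3K9 enzyme that acts with KRAB zinc-finger proteins and TRIM28, exceeded SETDB2 by 0.25 (0.05 to 0.44). Differences within 3 further pairs lost their interval off 0 on centring: EZH1 over EZH2 was 0.33 (0.08 to 0.58), KMT5B over KMT5C 0.40 (0.13 to 0.67) and SIRT1 over SIRT2 0.32 (0.10 to 0.55). In level, EZH2 remained the main PRC2 methyltransferase: EZH1 had 0.106 of the EZH2 TPM in PAX5 cells and 0.0843 of it in control cells. KMT2C and KMT2D differed by 0.11 (-0.05 to 0.27), and HDAC7 and HDAC9 by -0.01 (-0.26 to 0.24), intervals that leave room for modest differences.

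**Figure D4:**
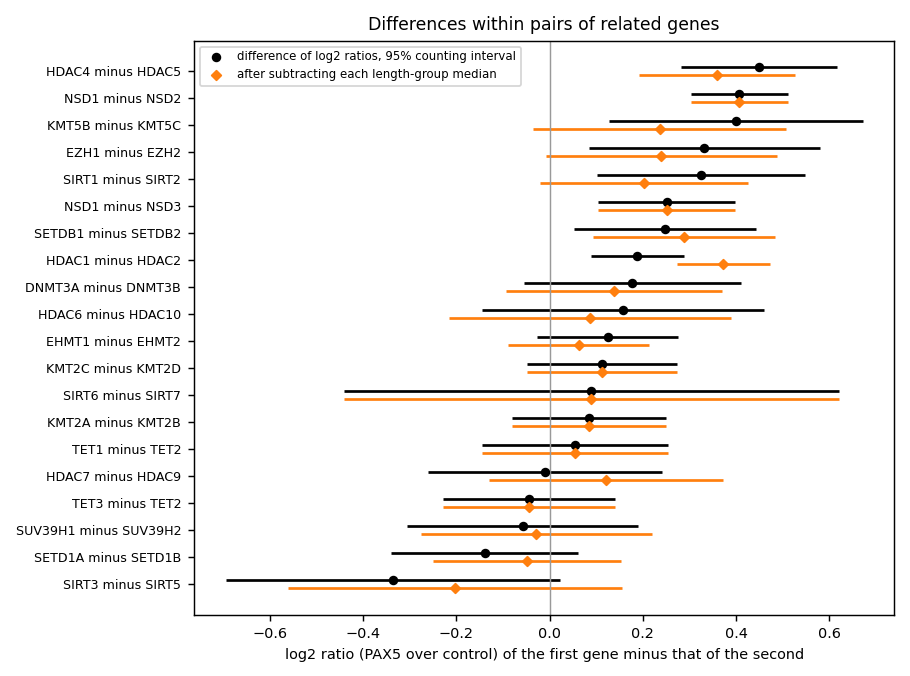
Difference between the log2 ratios (PAX5 over control) of the first and second gene of 20 pairs, with 95% counting intervals, before (black) and after (orange) subtracting each gene's length-group median. HDAC4 minus HDAC5 (0.45) and NSD1 minus NSD2 (0.41) are the largest differences, and SIRT3 minus SIRT5 lies lowest with an interval across 0.

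Partner and opposing genes were listed beside the members, 117 in all, of which 113 had at least 10 counts. Of those, 37 (32.7%) lay above their length group and 16 (14.2%) below, against 16.6% and 13.7% of all measured features, or 22.5% and 21.5% of features with at least 1000 counts. Histone demethylases, which remove the marks that the methyltransferases write, had 18 of 23 intervals above 0 and 1 below. Among all measured features 18.7% lay above 0 and 16.8% below. The demethylases are long and well counted, with medians of 5747 bases and 2423 counts. Of features with at least 1000 counts 28.7% lay above 0. In the length group of 5188 to 6738 bases 36.5% did, and in the longest group 54%. Of the 23 demethylases, 14 lay above their length group and 2 below. The median log2 ratio of that list was 0.25, and 0.18 after centring, where the members had 0.15 and 0.02. KDM7A, an H3K9 and H3K27 demethylase, had 683 counts in PAX5 cells and 287 in control cells, a log2 ratio of 1.15 (0.94 to 1.35) that did not reach the 2-fold bound. RIOX2 was the 1 companion gene called at 2-fold, on 15 counts in PAX5 cells and 1 in control cells, and it is named after its values were seen. On the other side KDM4D, an H3K9 demethylase, had 51 counts in PAX5 cells and 71 in control cells, a log2 ratio of -0.58 (-1.13 to -0.04).

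Acetyltransferases, which oppose the deacetylases, had 6 of 12 members above their length group and 1 below, led by the nuclear receptor coactivator NCOA3 with 1877 counts in PAX5 cells and 1060 in control cells, a log2 ratio of 0.72 (0.61 to 0.83). KAT5 was lowest, with 296 counts in PAX5 cells and 337 in control cells (log2 ratio -0.29). HDAC complex partners had 7 of 25 above and 3 below their length group. GPS2, a subunit of an HDAC3 corepressor complex, was lowest at a log2 ratio of -0.22. The MLL and SET1 partners had 1 of 14 above and 2 below, with KDM6A, the H3K27 demethylase of the KMT2C and KMT2D complexes, at 0.32 and the core subunit WDR5 at -0.21. KDM6A also stands in the demethylase list. PRC2 partners had 1 of 7 above and 1 below, and their log2 ratios ran from -0.14 to 0.15. Methylated-DNA readers and partners had 3 of 12 above and 1 below, with UHRF2 at 0.34 and IDH2 at -0.20. The weakly counted DNMT3L, named after its values were seen, had 28 counts in PAX5 cells and 8 in control cells, a log2 ratio of 1.70 (0.53 to 3.05). Arginine, SMYD and PRDM methyltransferases had 3 of 15 above and 5 below, with PRDM2 at 0.49 and SETMAR at -0.43. Heterochromatin partners had 3 of 6 above and 1 below, with ATF7IP, a cofactor of SETDB1, at 0.34 and WIZ at -0.10.

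**Figure D5:**
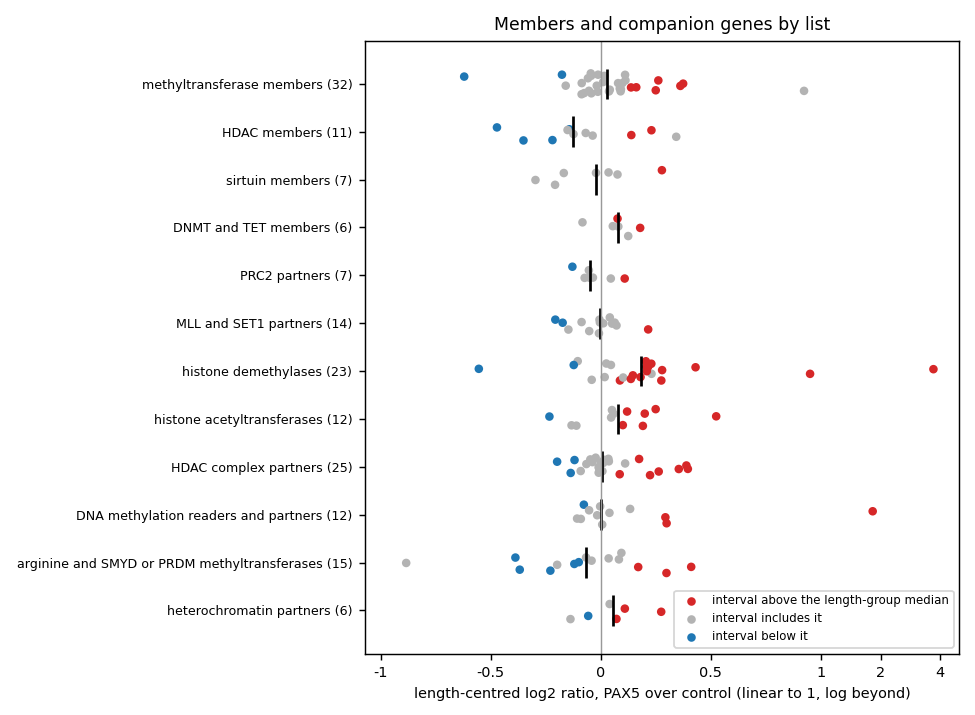
Length-centred log2 ratio (PAX5 over control) of measured members and companion genes by list (axis linear up to 1 and logarithmic beyond), with the number of genes in brackets and a black bar at each median. Red points have counting intervals above the median of their length group and blue points below. Histone demethylases have the highest list median, 0.18, and HDAC members the lowest, -0.12.

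Promoter windows of these genes were searched for the core of the PAX5 recognition sequence, since members with high, low and level ratios can be set side by side. RefSeq (GRCh38.p14) windows of 250 bases before to 50 after a gene start were used for 52 of 57 members, 87 windows in all. Member windows on 1 chromosome were left out of the search, while windows there stayed in the shares over all genes. GCGTGAC on either strand was found in the windows of 1 of 52 members (SUZ12), against 3.11% of 27305 genes in the table. The looser GCNTGAC, which includes it, was found for 7 of 52 members (EZH2, HDAC9, SETD2, SETD9, SETDB1, SUV39H1 and SUZ12), against 12.8% of all genes. The windows below are those of KMT2C and HDAC7, the highest and lowest ratios among members with at least 1000 counts, of HDAC9, which has a match, and of SUZ12, which has the full core; capitals mark matches to GCNTGAC. They lie at chr7:152435954-152436253 on the minus strand (KMT2C), chr12:47819854-47820153 on the minus strand (HDAC7), chr7:18495499-18495798 on the plus strand (HDAC9, the first of 5 listed windows) and chr17:31936757-31937056 on the plus strand (SUZ12).
KMT2C: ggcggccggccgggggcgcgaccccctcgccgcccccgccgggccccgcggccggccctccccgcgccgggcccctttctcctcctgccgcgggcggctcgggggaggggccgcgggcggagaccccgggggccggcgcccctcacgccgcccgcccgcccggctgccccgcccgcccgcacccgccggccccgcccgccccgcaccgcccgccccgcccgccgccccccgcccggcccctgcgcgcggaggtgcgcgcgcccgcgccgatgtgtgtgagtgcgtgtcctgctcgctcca
HDAC7: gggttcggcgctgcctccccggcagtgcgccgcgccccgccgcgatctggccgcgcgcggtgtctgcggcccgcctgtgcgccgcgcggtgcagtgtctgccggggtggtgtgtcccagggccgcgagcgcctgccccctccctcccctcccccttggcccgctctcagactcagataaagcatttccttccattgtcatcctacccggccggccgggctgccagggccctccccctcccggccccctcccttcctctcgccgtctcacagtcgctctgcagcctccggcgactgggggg
HDAC9: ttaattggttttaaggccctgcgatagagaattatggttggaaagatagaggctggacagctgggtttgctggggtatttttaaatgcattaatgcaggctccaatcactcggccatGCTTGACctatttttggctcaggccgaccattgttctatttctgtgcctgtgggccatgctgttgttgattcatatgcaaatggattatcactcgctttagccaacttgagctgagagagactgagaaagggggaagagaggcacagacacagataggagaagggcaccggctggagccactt
SUZ12: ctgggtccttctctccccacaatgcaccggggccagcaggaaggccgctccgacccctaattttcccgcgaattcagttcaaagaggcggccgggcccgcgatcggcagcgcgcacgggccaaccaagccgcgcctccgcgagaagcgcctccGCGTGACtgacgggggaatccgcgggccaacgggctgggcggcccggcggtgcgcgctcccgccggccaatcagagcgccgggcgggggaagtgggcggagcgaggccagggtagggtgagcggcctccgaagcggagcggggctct
KMT2C's window is 88.7% G or C with 56 CpG dinucleotides, HDAC7's 74.7% with 33, HDAC9's 47.3% with 5 and SUZ12's 73% with 40, where all windows had medians of 58.7% and 14. HDAC9 holds GCTTGAC and SUZ12 holds GCGTGAC, and the log2 ratios of the 2 genes were -0.28 and 0.02. A match is a string of letters and not a bound site, and binding was not measured here.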

How the data were processed

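Total RNA from 1 PAX5 library and 1 control library was sequenced. The deposited tables hold raw counts of reads per Entrez gene with a gene length. Per the submitters' processing notes the authors used featureCounts and the hg19 (GRCh37) build. Aligner, strand setting and treatment of multi-gene reads: not given in the sources used here. The series table and the single-library files held the same 51404 values. Symbols came by Entrez number from RefSeq (GRCh38.p14), for 23696 of 25702 features; the others held 0.519% of PAX5 counts and 0.590% of control counts.

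Libraries were scaled by TMM (edgeR 4.0.16, R 4.3.3) on features with at least 10 summed counts, with factors of 0.9954 for PAX5 and 1.0046 for control. Intervals are exact Clopper-Pearson 95% bounds given the summed count (scipy 1.17.1), and differences between paired genes are conditional odds ratios. They cover counting error only, since reads are not independent molecules; their log2 half-width had a median of 0.14 over members. Length groups were 10 equal groups of features with at least 100 counts. The calculation was tested on simulated data. Alternatives were other scalings (totals, upper quartile, DESeq2 1.42.0), count minimums, folds, and length backgrounds.

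The members, companion lists and pairs were chosen with earlier results of these data known. Any member could be named; full values are given for the 6 largest ratios on each side among members with at least 100 counts, the 4 most abundant genes and the pairs that differ most, and companion genes are named for the largest ratio on each side, except 1 that is not reported here.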

Additional observations from a re-analysis of the deposited data

How the results depend on the processing

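Across other scalings, no count minimum or one of 50, and the single-library files, 25 to 27 members had intervals above 0 and 7 to 9 below, and no member reached the 2-fold bound, a 1.5-fold bound or a point ratio of 2-fold. The members' median log2 ratio was 0.12 to 0.16 over these settings. Library totals moved SETD1A, and upper-quartile factors SETD1A and KMT2B, to intervals across 0, and upper-quartile factors moved SIRT7 and HDAC2 to intervals below 0. Against 5 other length backgrounds, of which the features nearest in length and length-by-GC groups were added after the data were seen, 10 to 14 members lay above and 6 to 8 below. All 6 of the genes below and 6 of the 11 above (EZH1, HDAC1, KMT2C, KMT2D, NSD1 and SIRT1) kept their side under all 5, while HDAC4, ASH1L, TET1, DNMT1 and KMT5B did not. DOT1L and NSD3 lay above under all 5, NSD2 below under 3 and EED below under 2, and EHMT1, SETD2, SETDB1 and TET2 above under 1 each. With an assumed coefficient of variation of 0.1 between cultures, also added later, 3 members had intervals above 0 and 1 below, and 0 lay above and 1 (HDAC9) below their length group; the wider interval alone makes this change. Shares of all features under that assumed variation were not counted. Paired genes with a difference off 0 numbered 8, and 5 after length centring. No paired analysis was possible because each group has 1 library. With 1 library per group, variation between cultures is not measured. For a typical member, differences under about 0.14 on the log2 scale did not clear counting error alone. Larger differences may still lie within the variation between cultures.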
